A study of Mus musculus with 9 samples.

Results

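The Fc receptors of splenic type 2 dendritic cells were examined as a set of 6 genes, chosen by name: the activating receptors for IgG Fcgr1, Fcgr3 and Fcgr4, the inhibitory receptor Fcgr2b, the signalling chain Fcer1g and the neonatal Fc receptor gene Fcgrt. All 6 were among the 24054 genes of the deposited tables, and all 6 were among the 14452 with an average count of at least 1 that were tested. The libraries were made from mRNA of cells sorted from mouse spleen, with 3 libraries in each of 3 groups: TOM+ cDC2 and TOM- DC2 from mice on postnatal day 8 (young), and TOM+ cDC2 from mice aged 9 weeks in 1 library and 8 weeks in the others (adult). Every mouse was C57BL/6 with both Clec9a alleles carrying Cre and both Rosa alleles carrying tdTomato, so that TOMATO marked cells with a history of Cre expression from the Clec9a locus, a locus used by precursors committed to the conventional dendritic cell (cDC) lineage. The sort took live, single, autofluorescence-negative cells with MHCII, CD11c and CD11b and divided them by TOMATO, spleens of young mice were pooled, and no adult TOM- group was compared here. The sorting label names no gate on CD64, the protein of Fcgr1, and none on another Fc receptor. In its flow cytometry of spleen, however, the study gated cDCs as negative for CD64. Its staining for flow cytometry also began with a blocking antibody to CD16 and CD32, the proteins of Fcgr3 and Fcgr2b. Whether either step applied to the sort for sequencing is not stated.

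Fc receptors let a cell respond to antibody that has bound its antigen. Activating Fc gamma receptors signal through an immunoreceptor tyrosine-based activation motif (ITAM) on the shared gamma chain, which Fcer1g encodes and without which they reach the surface poorly, whereas Fcgr2b carries an inhibitory motif (ITIM) in its own tail and raises the threshold for activation by immune complexes. Fcgrt encodes the heavy chain of FcRn, an MHC class I-like molecule that pairs with beta-2 microglobulin, protects IgG from degradation inside cells and, in dendritic cells, takes part in the handling of IgG immune complexes. In dendritic cells the balance between activating and inhibitory receptors is known to set how immune complexes affect maturation and antigen presentation.

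Positions are those of RefSeq on GRCm38.p6, the assembly behind mm10. Fcgr2b (gene ID 14130), Fcgr4 (246256) and Fcgr3 (14131) stand next to each other on chromosome 1, at chr1:170960558-170976071 on the minus strand, chr1:171018926-171029761 on the plus strand and chr1:171051169-171065915 on the minus strand. These 3 genes span 105 kb, with gaps of 42.9 kb and 21.4 kb between them, and Fcer1g (14127) lies 164 kb beyond Fcgr3 at chr1:171229572-171234349 on the minus strand. Fcgr1 (14129) lies at chr3:96282909-96293969 and Fcgrt (14132) at chr7:45092993-45103822, both on the minus strand. Within its span Fcgr3 holds 3 tRNA genes and a microRNA gene, and Fcgr4 holds an snRNA gene. The counting used no strand.

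The promoters of the 3 clustered genes are shown because these neighbours differed between young and adult cells in opposite directions. Each sequence holds the 250 bases before the transcription start in RefSeq, read 5′ to 3′ on the strand of the gene. Capitals mark the letters of 3 motifs searched on both strands: GAGGAA, the box bound by PU.1 and other ETS factors, TTCNNNGAA, the interferon-gamma activated site (GAS), and GAAA followed after any 2 bases by GAAA, the core of the interferon-stimulated response element (ISRE) bound by IRF factors.
Fcgr2b (chr1:170976072-170976321, minus strand): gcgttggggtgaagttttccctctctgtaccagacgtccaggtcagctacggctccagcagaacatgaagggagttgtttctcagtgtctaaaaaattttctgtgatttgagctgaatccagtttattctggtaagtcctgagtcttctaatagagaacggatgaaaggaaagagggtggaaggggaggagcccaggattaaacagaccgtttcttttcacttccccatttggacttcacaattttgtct
Fcgr4 (chr1:171018676-171018925, plus strand): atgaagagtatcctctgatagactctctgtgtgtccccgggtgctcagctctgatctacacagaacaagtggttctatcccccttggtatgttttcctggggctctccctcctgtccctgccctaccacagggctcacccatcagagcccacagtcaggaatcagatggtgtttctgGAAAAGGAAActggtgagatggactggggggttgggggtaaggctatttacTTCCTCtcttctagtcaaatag
Fcgr3 (chr1:171059404-171059653, minus strand): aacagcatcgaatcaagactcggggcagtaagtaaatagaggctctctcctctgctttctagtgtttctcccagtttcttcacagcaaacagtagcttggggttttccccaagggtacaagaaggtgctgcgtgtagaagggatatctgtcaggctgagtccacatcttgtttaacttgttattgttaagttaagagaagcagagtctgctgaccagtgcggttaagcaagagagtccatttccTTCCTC
No motif was found in the Fcgr2b window. The Fcgr4 window held 1 GAGGAA box on the opposite strand, written here as TTCCTC, which began 22 bases before the start, and 1 ISRE core that began 73 bases before it. The Fcgr3 window held 1 GAGGAA box, again on the opposite strand, 6 bases before the more upstream of its 2 listed starts, which is the start shown, and 15 bases before the other. Both of these starts lie inside the RefSeq span of Fcgr3, which reaches further upstream. For Fcgr1, 1 GAGGAA box lay 55 bases and 1 GAS 109 bases before the start, and no motif was found for Fcer1g or Fcgrt. Among all 32851 promoter windows of the same length, 23.3% held a GAGGAA box, 7.02% a GAS and 2.98% an ISRE core, and a match says only that the letters are there.

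Transcript levels are given as TPM, RSEM's abundance of transcripts, which is relative to the total of a library and corrected for transcript length, so that levels of different genes can be set side by side. Fcer1g was the most abundant Fc receptor transcript in each library, at 1129.31 TPM or more, and Fcgr1 the least abundant, at 0.12 to 1.02 TPM. In each young library of both groups the order from high to low was Fcer1g, Fcgrt, Fcgr2b, Fcgr3, Fcgr4 and Fcgr1, and the ranges of neighbours in this order did not overlap within a group. In each adult library Fcgr4 stood above Fcgr3, the reverse of the young order, and the adult ranges of Fcgrt and Fcgr2b overlapped. In bulk libraries, fewer cells that express a gene and less of its RNA per cell cannot be told apart. Between 12783252 and 22809401 reads fell on genes in a library, and p-values measure the spread between the libraries of a group, which the study calls biological replicates.

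**Figure D1:**
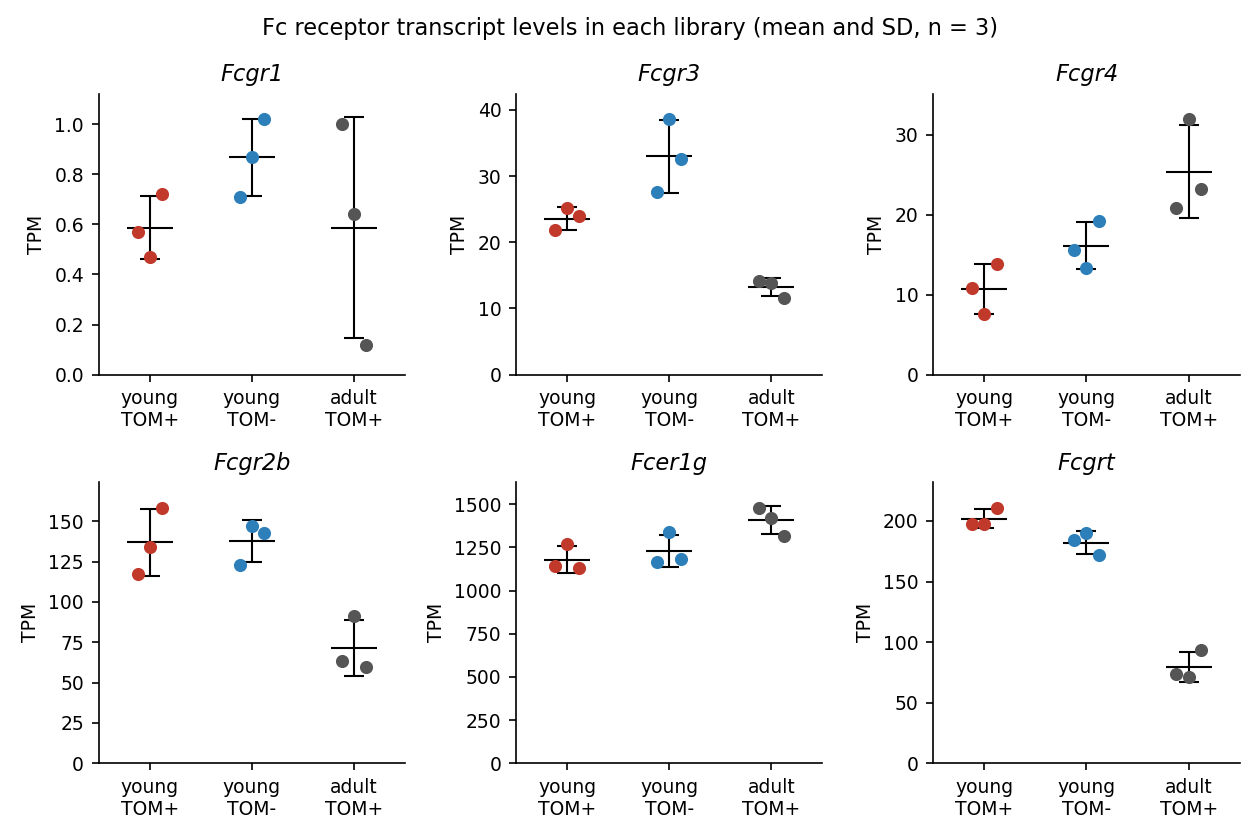
Transcript level in TPM (vertical axes, each starting at 0) of the 6 Fc receptor genes in each library, with the mean and SD of 3 libraries per group. Fcgr2b, Fcgr3 and Fcgrt sit higher in every young library than in every adult library, and Fcgr4 sits lower.

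The activating receptors Fcgr3 and Fcgr4 differed with age in opposite directions. Fcgr3, the low-affinity activating receptor of myeloid cells (CD16), measured 21.83, 25.12 and 23.95 TPM in young TOM+ cDC2, 27.62, 38.63 and 32.63 TPM in young TOM- DC2, and 14.10, 13.92 and 11.65 TPM in adult TOM+ cDC2. In TPM the 3 groups did not overlap, with TOM- DC2 highest and adults lowest. In TMM-scaled counts the young groups overlapped, and their difference did not pass (edgeR adjusted p = 0.32). In counts, Fcgr3 was 1.65-fold higher in young than in adult TOM+ cDC2 (log2 fold change 0.72 ± 0.17 SE, edgeR adjusted p = 0.0049) and 2.24-fold higher in young TOM- DC2 than in adult TOM+ cDC2 (1.16 ± 0.17, edgeR adjusted p = 0.00021).

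Fcgr4, an activating receptor for IgG2a and IgG2b that is typical of nonclassical monocytes, macrophages and neutrophils, measured 10.88, 7.56 and 13.78 TPM in young TOM+ cDC2, 15.56, 13.39 and 19.22 TPM in young TOM- DC2, and 20.90, 31.96 and 23.23 TPM in adults. All young libraries lay below all adult libraries, and the young groups overlapped. Fcgr4 was 2.53-fold higher in adult than in young TOM+ cDC2 (log2 fold change young minus adult -1.34 ± 0.23 SE, edgeR adjusted p = 0.00069). Against young TOM- DC2 it was 1.74-fold higher in adults (-0.80 ± 0.23, edgeR adjusted p = 0.017). The second difference did not pass when 1 of 2 libraries was left out, TOM- DC2 replicate 2 (adjusted p = 0.067) or adult replicate 2 (0.084), or with limma on TPM (0.055 and 0.056 with pseudocounts of 1 and 0.1).

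Fcgr1, the high-affinity receptor CD64, a marker of macrophages and monocyte-derived cells, was near the limit of detection, at 3 to 38 counts per library. It measured 0.57, 0.47 and 0.72 TPM in young TOM+ cDC2, 0.71, 0.87 and 1.02 TPM in young TOM- DC2, and 1.00, 0.64 and 0.12 TPM in adults, with overlap between all groups. None of its 3 differences passed, and their 95% intervals were wide: -1.70 to 0.60 on the log2 scale for young TOM+ minus young TOM-, -1.33 to 1.13 for young TOM+ minus adult, and -0.75 to 1.64 for young TOM- minus adult.

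The inhibitory receptor Fcgr2b (CD32B) was the most abundant of the Fc gamma receptors in each library. It measured 117.16, 134.16 and 158.47 TPM in young TOM+ cDC2, 122.76, 147.27 and 142.68 TPM in young TOM- DC2, and 63.32, 91.06 and 59.32 TPM in adults. The young groups overlapped, and all young libraries lay above all adult ones. Fcgr2b was 1.74-fold higher in young than in adult TOM+ cDC2 (log2 fold change 0.80 ± 0.18 SE, edgeR adjusted p = 0.0036) and 1.71-fold higher in young TOM- DC2 than in adults (0.77 ± 0.18, edgeR adjusted p = 0.005). The same 50 bases, the read length, occurred in Fcgr2b and Fcgr3 transcripts in 166 windows, 10.2% of those in Fcgr3 and 4.48% of those in Fcgr2b. In all, 395 windows of Fcgr2b (10.7%) also occurred in transcripts of other genes, 146 in number with Fcgr3 included. RSEM, which divides reads between such copies, gave 110% to 114% of the STAR count for Fcgr2b and 111% to 120% for Fcgr3, against 92.3% to 100% for the other members. With RSEM's expected counts, 5 members passed in each comparison with adults, as with STAR counts.

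Fcer1g, the chain shared by the activating receptors, differed by the smallest fold among the members that passed. It measured 1140.37, 1272.00 and 1129.31 TPM in young TOM+ cDC2, 1168.14, 1339.21 and 1182.60 TPM in young TOM- DC2, and 1481.10, 1423.50 and 1318.42 TPM in adults. All adult libraries lay above those of young TOM+ cDC2, and adult replicate 3 lay below the highest of young TOM- DC2. The chain was 1.30-fold higher in adult than in young TOM+ cDC2 (log2 fold change young minus adult -0.38 ± 0.11 SE, edgeR adjusted p = 0.014) and 1.27-fold higher in adults than in young TOM- DC2 (-0.35 ± 0.11, edgeR adjusted p = 0.024). The first difference did not pass without young TOM+ replicate 1 (adjusted p = 0.051) or adult replicate 1 (0.057). The second did not pass without TOM- replicate 1 (0.083) or 3 (0.053), without adult replicate 1 (0.088) or 2 (0.068), or with limma on TPM (0.089 and 0.086 with pseudocounts of 1 and 0.1).

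Fcgrt, the FcRn heavy chain, had the lowest adjusted p among the members in both comparisons with adults. It measured 197.45, 197.70 and 211.07 TPM in young TOM+ cDC2, 184.45, 190.42 and 171.90 TPM in young TOM- DC2, and 73.52, 70.86 and 93.69 TPM in adults. The highest adult library lay well under the lowest young one. Fcgrt was 2.34-fold higher in young than in adult TOM+ cDC2 (log2 fold change 1.23 ± 0.10 SE, edgeR adjusted p = 3.3e-06) and 2.07-fold higher in young TOM- DC2 than in adults (1.05 ± 0.10, edgeR adjusted p = 1.4e-05). B2m, which encodes its partner beta-2 microglobulin, differed in the other direction, with 4430.99 to 5678.42 TPM in the young groups and 6843.74 to 7957.18 TPM in adults (log2 fold changes -0.63 and -0.66, edgeR adjusted p = 0.00096 and 0.0008).

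Counted over the members, 3 of 6 passed as higher in young than in adult TOM+ cDC2, where 21.0% of all genes tested did, and 2 of 6 passed as higher in adults, where 19.5% did. With a log2 fold change beyond 1 as well, 1 of 6 was higher in young cells (Fcgrt), against 5.96% of all genes, and 1 of 6 in adults (Fcgr4), against 6.86%. Between young TOM- DC2 and adult TOM+ cDC2, 3 of 6 passed as higher in young cells and 2 of 6 as higher in adults, against 19.4% and 16.9% of all genes. With the fold limit, 2 of 6 were higher in young cells (Fcgr3 and Fcgrt), against 6.50%, and 0 of 6 in adults, against 4.78%. Calls with the fold limit turned on single libraries: Fcgrt fell just under it in the second comparison without TOM- DC2 replicate 2 (log2 fold change 0.98) or adult replicate 2 (0.99), Fcgr4 passed it there without TOM- DC2 replicate 3 (-1.01), and Fcgr2b passed it in the first comparison without adult replicate 2 (1.02). Both comparisons use the same adult libraries, so that their agreement is partly built in, and the second differs in TOMATO as well as age. The median log2 fold change of all genes tested was 0.05 and 0.07, and on the scale of log2(TPM + 0.1) it was 0.172 and 0.22, a shift that turned the direction of no member that passed.

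**Figure D2:**
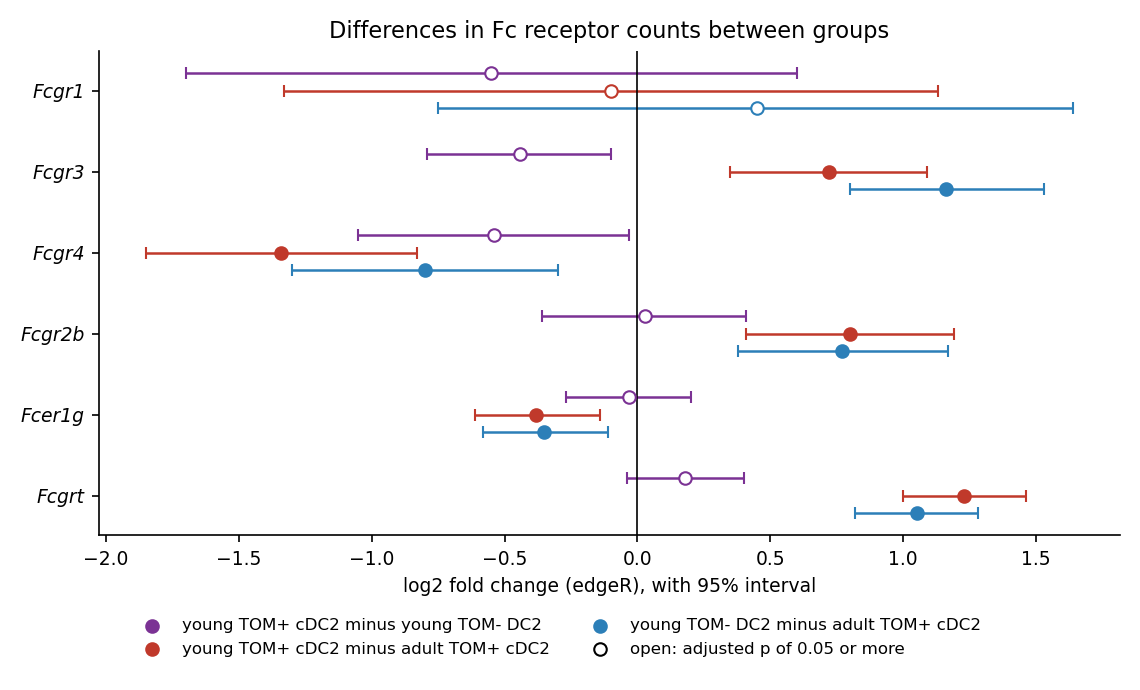
Log2 fold change from edgeR (horizontal axis, points) with its 95% interval (bars) for each Fc receptor gene in the 3 comparisons of groups, filled where the adjusted p over all genes was under 0.05. Fcgr3, Fcgr2b and Fcgrt lie right of 0 and Fcgr4 and Fcer1g left of it in both comparisons with adults, and no point is filled between the young groups.

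Between the young groups, the comparison that asks whether dendritic cells with and without a Clec9a history differ at the same age, 0 of 6 members passed in edgeR, against 1.60% of all genes tested (231 of 14452), or 2.80% (405) when the number shared by the names of young libraries was a block. DESeq2 and limma also called 0 of 6. At an unadjusted p under 0.05 there were 2, both lower in TOM+ cDC2. Fcgr3 had a log2 fold change of -0.44 (95% interval -0.79 to -0.10, edgeR adjusted p = 0.32, 0.076 with the block), and its young groups were apart in TPM but overlapped in TMM-scaled counts. Fcgr4 had one of -0.54 (-1.05 to -0.03, edgeR adjusted p = 0.49, 0.15 with the block). For the others the intervals were -0.36 to 0.41 for Fcgr2b, -0.27 to 0.20 for Fcer1g and -0.04 to 0.40 for Fcgrt, which leaves room for differences of up to about those sizes.

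Ratios within a library do not depend on its total. The summed TPM of the 3 activating receptors was 33.1 to 38.4 in young TOM+ cDC2, 43.9 to 52.9 in young TOM- DC2 and, in adults, 35.0 to 46.5, so that the adult sum overlapped both young groups. Divided by Fcgr2b, it was 0.243 to 0.284 in young TOM+ cDC2, 0.358 to 0.371 in young TOM- DC2 and 0.511 to 0.590 in adults, with no overlap. Inhibitory transcript thus exceeded the activating sum in each library, by the widest margin in young TOM+ cDC2. The make-up of the activating sum differed too: Fcgr4 made up 22.8% to 35.8% of it in young TOM+ cDC2, 25.3% to 36.4% in young TOM- DC2 and 58.1% to 68.7% in adults. Fcgr4 over Fcgr3 was 0.301 to 0.575, 0.347 to 0.589 and 1.48 to 2.30 in the same order. Fcer1g exceeded all Fc gamma receptors with which it can pair many times over, at 22.4 to 41.1 times the activating sum. Against Tyrobp, the other ITAM chain of myeloid cells, Fcer1g was 0.543 to 0.602, 0.568 to 0.593 and 0.613 to 0.633. No test was run on these ratios, since the receptors in them were picked with results known.

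**Figure D3:**
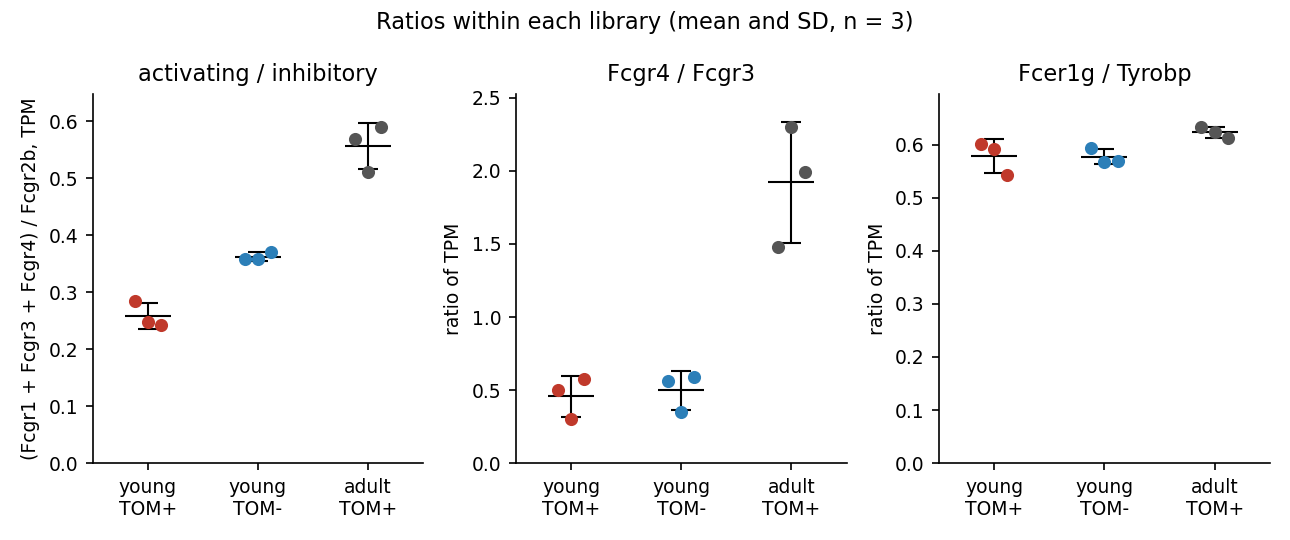
Ratios of TPM within each library (vertical axes, from 0), with the mean and SD of 3 libraries per group: activating receptors over Fcgr2b, Fcgr4 over Fcgr3, and Fcer1g over Tyrobp. In the first panel the groups step up from young TOM+ cDC2 to young TOM- DC2 to adult TOM+ cDC2, and in the second the young groups overlap below the adult libraries.

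Along chromosome 1 the direction changed from gene to gene. Of the clustered genes, Fcgr2b and Fcgr3 were higher in young cells and Fcgr4, which lies between them, was higher in adult cells, in both comparisons with adults. Fcrla, an Fc receptor-like gene 28.3 kb from Fcgr2b, was higher in young cells (log2 fold changes 1.23 and 1.21, edgeR adjusted p = 0.0074 and 0.009), and so was Sdhc, a subunit of mitochondrial complex II, 63.2 kb from Fcgr3 (0.45 and 0.34, adjusted p = 0.0012 and 0.0086). Fcrlb, between Fcrla and Dusp12, did not pass (0.34 and 0.61). Next to Fcgrt, Rcn3 at a distance of 0.671 kb was also higher in young cells (0.50 and 0.59, adjusted p = 0.0036 and 0.0014). Counting up to 3 neighbours on each side that were tested, 4 of 23 passed as higher in young TOM+ cDC2 and 0 as higher in adults, and for TOM- DC2 4 were higher in young cells and 2 in adults, Terc and Txnip near Fcgr1. As shares of the 23 these were no higher than the shares of all genes, 21.0% and 19.5% for TOM+ cDC2 and 19.4% and 16.9% for TOM- DC2.

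**Figure D4:**
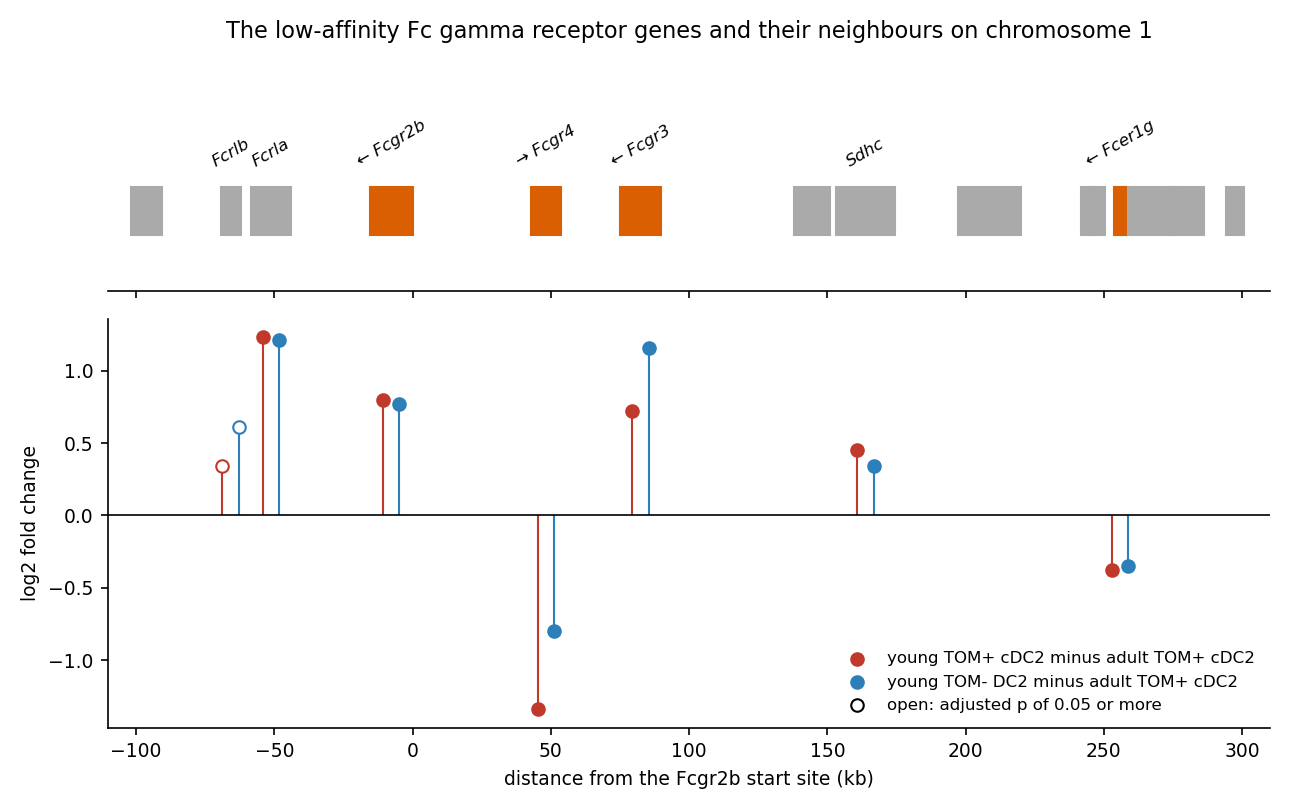
Top, the Fc receptor genes (orange, arrows give the strand) and tested neighbours (grey) on chromosome 1 by distance in kb from the Fcgr2b start site. Bottom, log2 fold change of named genes, young minus adult, filled where the adjusted p was under 0.05: Fcgr4 points down between Fcgr2b and Fcgr3, which point up.

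Other Fc receptors of the pathway list separated the young groups where the 6 members did not. Of 13 genes, 11 were tested, and 4 passed between the young groups, against 1.60% of all genes. All 4 were lower in young TOM+ cDC2 than in young TOM- DC2: Fcer2a, Pigr, Fcmr and Fcamr. Fcer2a, the low-affinity IgE receptor CD23, measured 0.70 to 0.79 TPM in young TOM+ cDC2, 5.94 to 8.36 TPM in young TOM- DC2 and 2.23 to 2.98 TPM in adults (log2 fold change between the young groups -3.27 ± 0.22 SE, edgeR adjusted p = 7.6e-06). Pigr, the polymeric immunoglobulin receptor, measured 0 to 0.26, 4.48 to 5.12 and 0 TPM in the same order (-4.93 ± 0.47, edgeR adjusted p = 0.00033). Fcamr, a receptor for IgA and IgM, had 11 to 32 counts in each TOM- DC2 library and 0 in every TOM+ library of either age. Set against a floor of 3 counts per library, Fcamr was at least 6.26-fold and Fcmr, the IgM receptor, at least 12.7-fold higher in TOM- DC2 than in young TOM+ cDC2. The IgE receptor genes Fcer1a and Ms4a2 did not reach the count filter.

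Markers of B cells differed between the young groups with these genes: Ms4a1 measured 2.04 to 2.77 TPM in young TOM+ cDC2, 6.02 to 10.38 in TOM- DC2 and, in adults, 13.75 to 22.08, and Blk 0.12 to 1.06, 4.38 to 7.42 and 9.68 to 16.95. The B cell factor genes Pax5 and Ebf1 were at most 0.12 and 0.21 TPM and Cd79a at most 1.59 TPM in any library. Cd79b, the partner of Cd79a in the B cell receptor, was the most abundant gene of the list, at 58.54 to 68.20 TPM in young libraries and 25.34 to 35.63 TPM in adults, so that with age it moved the opposite way to Ms4a1 and Blk (log2 fold changes 0.90 and 0.93, edgeR adjusted p = 5.3e-05 and 5e-05). Of 7 tested B cell genes, Fcmr included, 3 passed as lower in young TOM+ cDC2 than in TOM- DC2. Of all genes tested, 1.60% passed between these groups. The summed level of the list was 61.1 to 71.3, 77.0 to 89.4 and 54.3 to 71.0 TPM in young TOM+ cDC2, TOM- DC2 and adults. Between young and adult cells, Fcrl1, an Fc receptor-like gene of B cells, was higher in adults (67.62 to 70.30 TPM against 22.65 to 26.90 TPM in the young groups, log2 fold changes -1.66 and -1.57, edgeR adjusted p = 1.4e-07 and 2.4e-07). In all, 2 of the 11 passed as higher in young than in adult TOM+ cDC2 and 3 as lower. Of all genes tested, 21.0% and 19.5% did. The median of the 11 was 0.00, against 0.05 for all genes. Between young TOM- DC2 and adults, 5 passed as higher in young cells and 1 as lower, against 19.4% and 16.9%. The median there was 1.21, against 0.07.

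Genes that carry the signal of activating receptors were mostly higher in adults where they differed. Of 27, 3 passed as higher in young TOM+ cDC2, against 21.0% of all genes, and 11 as higher in adult TOM+ cDC2, against 19.5% (median log2 fold change -0.20). For young TOM- DC2 the counts were 2 and 11, against 19.4% and 16.9% of all genes (median -0.28). Among them were Malt1, a paracaspase downstream of Syk and CARD9 (-1.27 and -1.13, edgeR adjusted p = 3.3e-06 and 9.9e-06), Pik3r1, a regulatory subunit of PI3-kinase (-1.34 and -1.17, adjusted p = 1.9e-05 and 6.4e-05), and the Src family kinase Fgr (-0.70 and -0.84, adjusted p = 3e-05 and 1.1e-05). Between the young groups 1 of 27 passed, against 1.60% of all genes tested. It was the Src family kinase Fyn, which was higher in TOM+ cDC2 (0.37 ± 0.08 SE, edgeR adjusted p = 0.04).

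Of 10 genes of inhibitory signalling, 1 was higher in young and 4 in adult TOM+ cDC2, against 21.0% and 19.5% of all genes (median -0.12). For young TOM- DC2 the counts were 2 and 4, against 19.4% and 16.9% (median -0.24). Csk, which phosphorylates the inhibitory site of Src kinases, was higher in adults (-0.68 and -0.77, edgeR adjusted p = 6.9e-05 and 3.4e-05). The adaptor Dok2, an inhibitor of tyrosine kinase signalling, was higher in young cells, at 4.65 to 8.25 TPM against 0.08 to 1.29 TPM (3.42 and 3.71, adjusted p = 0.00046 and 0.00029). Inpp5d, which encodes the phosphatase SHIP1 that Fcgr2b recruits, did not pass (-0.13 and -0.24, adjusted p = 0.33 and 0.073).

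Among 7 tested receptors that also signal through Fcer1g, 2 passed as higher in young cells and 0 as higher in adults in both comparisons. Of all genes tested, 21.0% and 19.4% passed as higher in young TOM+ cDC2 and TOM- DC2, and 19.5% and 16.9% as higher in adults. Clec4n (Dectin-2), a receptor for fungal mannan, measured 157.46 to 215.83 TPM in young TOM+ cDC2, 158.43 to 263.21 TPM in young TOM- DC2 and 38.21 to 81.70 TPM in adults (1.60 and 1.66, edgeR adjusted p = 0.00064 and 0.00058), with no overlap between the ages. Clec4d measured 1.11 to 2.86 TPM in young and 0 to 0.42 TPM in adult libraries (2.44 and 2.77, edgeR adjusted p = 0.0037 and 0.0017). It had only 1 to 5 counts in an adult library. The chain itself was higher in adults.

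Factors known to act on Fc receptor promoters were higher in adults, 6 of 6 in both comparisons, against 19.5% and 16.9% of all genes. Their medians were -0.76 and -0.60, against 0.05 and 0.07 for all genes. These factors were listed with earlier results of these data known. Among them were Irf1 (log2 fold changes -0.98 and -0.92), Irf8 (-1.10 and -0.34), the ETS factor Spi1 that encodes PU.1 (-0.47 and -0.58), Nfkb1 (-0.51 and -0.58) and Rela (-0.53 and -0.63). Irf8 also differed between the young groups, at 20.27 to 26.45 TPM in TOM+ cDC2 and 39.13 to 44.21 TPM in TOM- DC2 (-0.77 ± 0.11 SE, edgeR adjusted p = 0.0027). Of the members with a GAGGAA box, a GAS or an ISRE core in the window searched, Fcgr4 was higher in adults, Fcgr3 was lower, and Fcgr1 did not pass.

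**Figure D5:**
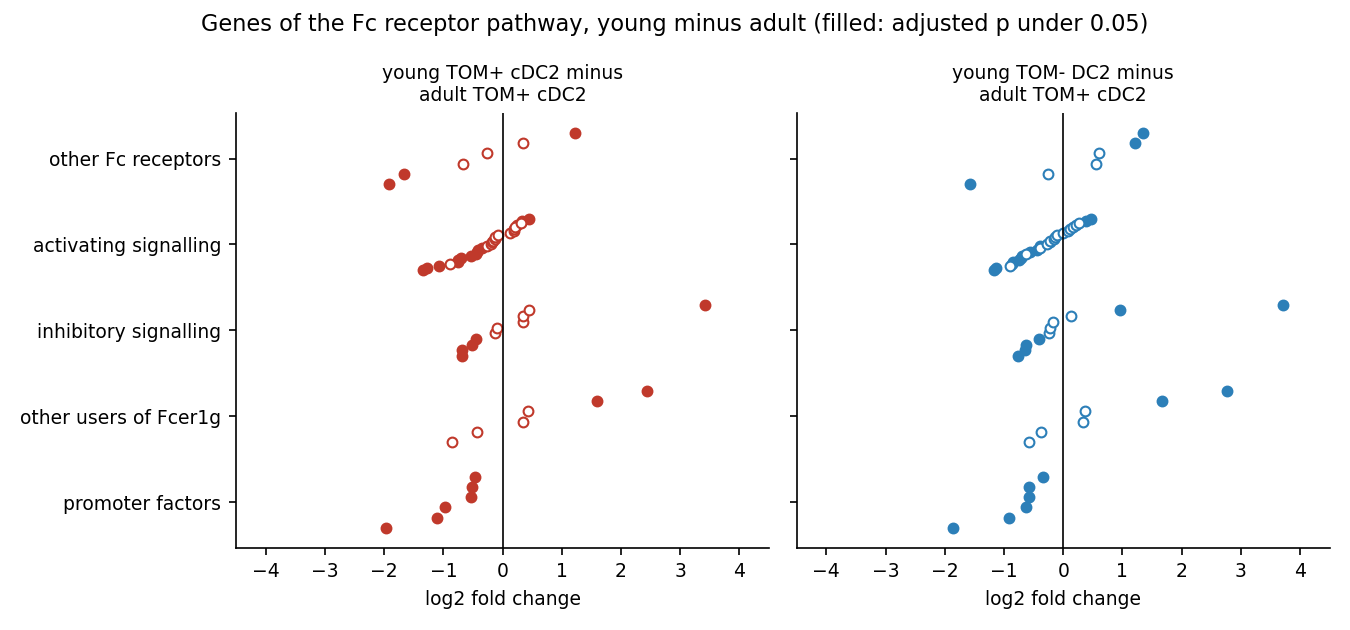
Log2 fold change, young minus adult (horizontal axes), of 55 genes of the Fc receptor pathway by list, filled where the adjusted p was under 0.05; 6 genes with a group at or under 3 counts per library are not drawn. Points of the promoter factors all lie left of 0, and Dok2, at 3.42 and 3.71, lies farthest right.

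The transcripts whose levels ran most alike with each member over the 9 libraries are given as a description, since the libraries share groups, and any gene that differs with age will resemble another. For Fcgrt these were Mrpl49 and Mrps28, subunits of the mitochondrial ribosome, and the kinase gene Vrk1 (Pearson's r of log2(TPM + 1) = 0.997, 0.997 and 0.996). For Fcgr2b they were Gpr171, the mitotic kinase gene Aurka and Anapc16, a subunit of the anaphase-promoting complex (0.993, 0.988 and 0.986). For Fcgr3 they were Clybl, the ferritin light chain gene Ftl1 and Capg, an actin-capping protein (0.988, 0.986 and 0.979), of which Capg averaged 21.5 TPM in young TOM+ cDC2, 40.4 TPM in TOM- DC2 and 2.80 TPM in adults. For Fcgr4 they were the receptor gene Kit, Pick1 and Tmem231 (0.969, 0.969 and 0.964), and for Fcer1g the lysozyme gene Lyz1, Ptms and Zfp36l1 (0.961, 0.945 and 0.940). Fcgr1, at few counts, had lower values, led by Narf (0.883).

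Markers of other cells that carry Fc receptors were set beside these results, and their part in them was not tested. Defining dendritic cell genes were present, with Itgax, H2-Ab1, Sirpa, Flt3 and Zbtb46 at 111.71 TPM or more in each library. They also differed with age. Of 12 such genes, 9 passed as higher in adults in each comparison and 2, Itgam and Sirpa, as higher in young cells. Between the young groups 0 of 12 passed. Of all genes tested, 21.0% and 19.4% passed as higher in young TOM+ cDC2 and TOM- DC2, and 19.5% and 16.9% as higher in adults. Esam, which marks a subset of splenic cDC2, measured 14.37 to 37.89 TPM in young libraries and 72.60 to 90.72 TPM in adults (log2 fold changes -2.21 and -1.67, edgeR adjusted p = 7.2e-06 and 5.8e-05), and Clec4a4 (-1.49 and -1.28) and Cd209a (-1.29 and -1.78) were lower in young cells too. In the comparisons with adults, a different mix of cDC2 subsets and a change within cells cannot be told apart. Of 12 macrophage genes, 7 passed as higher in young TOM- DC2 than in adults and 0 as lower. For young TOM+ cDC2 against adults these counts were 3 and 1, and between the young groups 0 passed. The summed level was 372 to 402 TPM in young TOM+ cDC2, 492 to 551 TPM in TOM- DC2 and, in adults, 266 to 332 TPM. That order was also seen for Fcgr3 in TPM. The largest part of the sum, Adgre1, passed in neither comparison with adults (log2 fold changes -0.01 and 0.10, edgeR adjusted p = 0.92 and 0.49). The 7 genes were Hmox1, Spic, Slc40a1, C1qa, C1qb, C1qc and Mertk. The first 3 of these also passed for young TOM+ cDC2, and Vcam1 was the 1 lower there (-0.74, edgeR adjusted p = 0.00073). Hmox1 measured 39.13 to 56.10, 67.10 to 80.44 and 9.07 to 17.48 TPM. Spic measured 41.88 to 47.79, 52.34 to 81.58 and 23.28 to 31.84 TPM, and C1qb 35.76 to 50.65, 64.57 to 78.33 and 19.49 to 43.06 TPM. Marco was at most 0.82 TPM and Cd5l at most 0.54 TPM in any library. Of 7 nonclassical monocyte genes, 4 passed as higher in adults and 1 as lower in both comparisons, and the summed level, most of it Nr4a1, was 2260 to 2600, 2250 to 2840 and 3520 to 4520 TPM, higher in adults as Fcgr4 was. Ace was 0.90 to 2.24 TPM in young libraries and 7.84 to 14.37 TPM in adults, while Treml4 was lower in adults. Of 7 classical monocyte genes, 1 passed as higher and 1 as lower in young TOM+ cDC2 than in adults, and the summed level was 168 to 179, 184 to 194 and 276 to 299 TPM. Most of it was Ms4a4c, at 128.23 to 167.77 TPM in young libraries and 252.90 to 280.26 TPM in adults (-1.11 and -0.85), and Ccr2 measured 32.81 to 46.96 TPM in young TOM+ cDC2, against 19.04 to 28.38 TPM in TOM- DC2 and, among adult libraries, 16.75 to 17.08 TPM. Ly6c2, F13a1 and Vcan were at most 1.86, 0.25 and 0.08 TPM. The basophil and mast cell genes Mcpt8, Prss34 and Ms4a2 were at 0 in each library. TOM- DC2 replicate 1 held Hba-a1 at 443.65 TPM and Ngp, a neutrophil gene, at 15.51 TPM. Without it, 4 of 6 members passed between TOM- DC2 and adults, all but Fcgr1 and Fcer1g. That drop was not particular to this library. The count was also 4 without TOM- DC2 replicate 2, TOM- DC2 replicate 3 or adult replicate 1, and 3 without adult replicate 2.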

How the data were processed

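mRNA of sorted splenic cells was sequenced in 9 libraries, 3 per group, as single-end reads of 50 bases after SMART-seq cDNA synthesis, which keeps no strand. Per the labels and the study's methods, the authors aligned reads to mm10 with STAR, and the deposited counts are STAR's whole reads per gene without normalization. The unstranded column was used, and STAR's summary lines, 26.14% to 31.63% of all reads, were kept out of library sizes. This share separated the ages: it was at least 30.19% in every adult library and at most 29.11% in every young one. Reads that fell on no gene reached 15.18% or more of each adult library but never exceeded 12.83% of a young library. Reads with several matches differed the opposite way, with adult libraries at 10.85% or less and young libraries at 12.68% or more. Whether this library difference contributes to the differences with age was not tested. The authors also deposited RSEM's expected counts, TPM and FPKM. TPM were used for levels, expected counts, rounded, for an alternative, and FPKM not at all.

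Differences were tested in R 4.3.3 with edgeR 4.0.16 (quasi-likelihood test, TMM) on all 9 libraries in 3 groups, for genes whose counts averaged 1 or more, and adjusted by Benjamini-Hochberg over 14452 genes. A gene passed at an adjusted p under 0.05. Alternatives were DESeq2 1.42.0, limma 3.58.1 on log2 TPM, other filters and scaling, expected counts, 2 groups alone, each library left out, and a replicate block. The test was also run on simulated counts with known changes. This checked the code, not how well adjusted p-values hold in these libraries. Intervals are at 95%, and floors of 3 counts cover counting error only.

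Groups came from the labels. Replicates are numbered in accession order. The deposited names of the young libraries carry 81, 91 and 92 in both groups, and deviations from the group means over 10112 genes correlated between libraries of the same number (r = 0.743, 0.49 and 0.515) and by at most 0.165 otherwise, so that the block pairs them. Adult names carry 91, 92 and 95. Adult and young libraries of the same number correlated at 0.147 and 0.149 for 91 and at -0.013 and 0.127 for 92, and adults were given no block term. The meaning of the number is not given in the sources used here. The lowest chi-square per gene between 2 libraries of a group was 8.743, so that none were copies.

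The members and all lists were chosen with earlier results of these data known. All 6 members are described, with counts per pathway list, at most 4 genes per list by the smallest adjusted p in a comparison (every gene of a list of 6 or fewer), marker lists by summed level and genes that moved with a member, the 3 tested neighbours on each side, and the 3 genes most alike among those averaging at least 10 TPM. Inpp5d, Fcrlb and single markers were named after their values were seen. Some genes that these rules pick are counted but not reported by name here. Promoters are from RefSeq on GRCm38.p6, where 6 of 6 members matched.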

Additional observations from a re-analysis of the deposited data

How the results depend on the processing

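Of the values recomputed under alternatives, 12 turned direction, 15 weakened and 3 moved beyond 1 SD. The weakened ones were differences of Fcgr4 and Fcer1g that no longer passed and counts of passing members that fell to 3. Between young TOM- DC2 and adults, 3 of 6 members passed with limma on either pseudocount (Fcgr4 -0.62 and -0.65, Fcer1g -0.20 and -0.20), and 3 to 5 with 1 library left out. Leaving out libraries gave Fcgr4 -1.01 to -0.58 and Fcer1g -0.44 to -0.27 there, and Fcer1g -0.46 to -0.32 against young TOM+ cDC2, where 4 to 5 passed (4 without young TOM+ replicate 1 or adult replicate 1). Directions turned only for differences that did not pass: Fcgr2b between the young groups (-0.02 with limma on either pseudocount, -0.10 to 0.16 with libraries left out), Fcer1g between them (-0.11 to 0.06), and Fcgr1 between young TOM+ cDC2 and adults (0.04 and 0.27 with limma, -0.64 to 0.50) and between young TOM- DC2 and adults (-0.09 to 1.05). On counts in place of TPM, the log2 activating to inhibitory ratio in TOM- DC2 was -1.54 rather than -1.46. Counts are not corrected for transcript length, so that for a ratio of different genes these are unlike measures. Between young and adult cells, Fcer1g differed by -0.38 and -0.35 on counts rather than -0.25 and -0.19. The replicate block, with adults given no term, left 0, 5 and 5 members passing and changed no member's call. Without both young libraries numbered 81, an alternative chosen after seeing the data, these counts were also 0, 5 and 5. The causes were not tested. Fcgr1, at 3 to 38 counts, allowed no firm statement at this depth, and 3 libraries per group limit the rest.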
